A study of Mus musculus with 4 samples.

Results

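The cytosolic ribosomal protein genes encode the protein parts of the ribosome that makes proteins in the cytoplasm. They were taken here as the genes whose symbols begin with Rpl or Rps and follow the naming of ribosomal proteins, without the Rps6k kinases and without genes named as pseudogenes. The rule found 67 of the 22180 genes tested, 42 of the large subunit and 25 of the small subunit. Each gene was read from its brightest probe set among those that the annotation assigns to that gene alone. A further 12 matching symbols stand only on probe sets assigned to several genes and were not counted as members. Affymetrix arrays measured total RNA of LSK cells, flow-sorted from bone marrow as lineage-, Sca1+ and c-Kit+, a gate that includes blood stem cells and early progenitors. The groups were 2 samples of SRC-3 knockout mice (KO) and 2 of wild-type mice (WT), all male and 8 weeks old, with 1 array per sample. The comparison asks which genes differ in these cells when SRC-3, the nuclear receptor coactivator encoded by Ncoa3, is missing. Samples are labelled as biological replicates, but the number of mice in each is not given, so a p-value here reflects the spread among these samples alone, and that spread may be technical. The labels do not say how the allele was made or which cells of the mouse lack SRC-3.

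Most ribosomal proteins are present once in each ribosome, and cells make them in nearly matched amounts. Most of their mRNAs begin with a terminal oligopyrimidine (TOP) tract, through which mTOR signalling sets how actively they are translated. In blood formation the family is known for Diamond-Blackfan anemia, a human failure of red cell production caused by loss of one copy of a ribosomal protein gene.

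Values are log2 expression after RMA, a method that corrects background, normalizes arrays and summarises the probes of a set. Differences are KO minus WT on this log2 scale. A signal depends on its probes, so it does not rank the mRNA of one gene against that of another. In these bulk samples fewer cells of a type and less RNA per cell cannot be told apart. The targeted gene Ncoa3 had 5.35 and 5.09 in KO cells, against 7.76 and 7.05 in WT cells, and it fell by 2.19 ± 0.27 on the log2 scale (SE, limma adjusted p = 0.038). Of the LSK genes listed, Kit, which encodes the sorted c-Kit, had 9.43 and 9.34 in KO cells, against 10.33 and 9.65 in WT cells, and the progenitor marker Cd34 had 10.15 and 10.08 in KO cells, against 10.86 and 10.73 in WT cells. Of 6 such genes measured, 5 lay below both WT arrays on both KO arrays and 1, Slamf1, lay above them, beside 22.9% and 25.1% of all genes. Ly6a, which encodes Sca1, was not analysed here. The mean signal of 4 measured erythroblast markers of 9 listed was 5.35 and 5.56 on the KO arrays, against 3.61 and 3.63 on the WT arrays. Of these, Rhag and Ermap rose in limma, Epb42 had a higher KO mean and Slc4a1 a lower one. The mean signal of 9 neutrophil markers was 5.50 and 5.55 on the KO arrays, against 4.59 and 4.95 on the WT arrays. The KO mean was higher for 7 of these and lower for 2, and limma called 0 after adjustment. At an unadjusted p under 0.05, 5 of them were higher, beside 10.5% of all genes. The median differences of the measured B cell, T and NK cell, macrophage and dendritic cell, and megakaryocyte markers were -0.21, -0.17, -0.077 and 0.14. Their single values ran from -1.72 to 0.27, -0.85 to 0.44, -1.21 to 1.73 and -0.11 to 1.27. After adjustment limma called 1 macrophage or dendritic cell marker higher, beside 0.397% of all genes, and 0 of the other 3 lists. The part of these marker levels in the results on ribosomal protein genes was not tested.

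The KO arrays carried higher signals for most ribosomal protein genes, mostly by small amounts. The KO mean was higher for 52 of the 67 genes and lower for 15, with a median difference of 0.20, beside -0.0010 over all genes. Differences ran between -0.72 for Rpl32l and 1.66 for Rpl34, and the quartiles were 0.052 and 0.51. The median was 0.16 for large subunit genes and 0.22 for small subunit genes. In limma at an adjusted p under 0.05, 2 members rose, Rpl34 and Rpl17, and 0 fell, where 0.397% of all genes rose and 0.113% fell. At an unadjusted p under 0.05, 19 members were higher and 1 was lower, beside 10.5% and 6.93% of all genes. Both KO arrays lay above both WT arrays for 40 members and below them for 5, beside 25.1% and 22.9% of all genes.

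**Figure D1:**
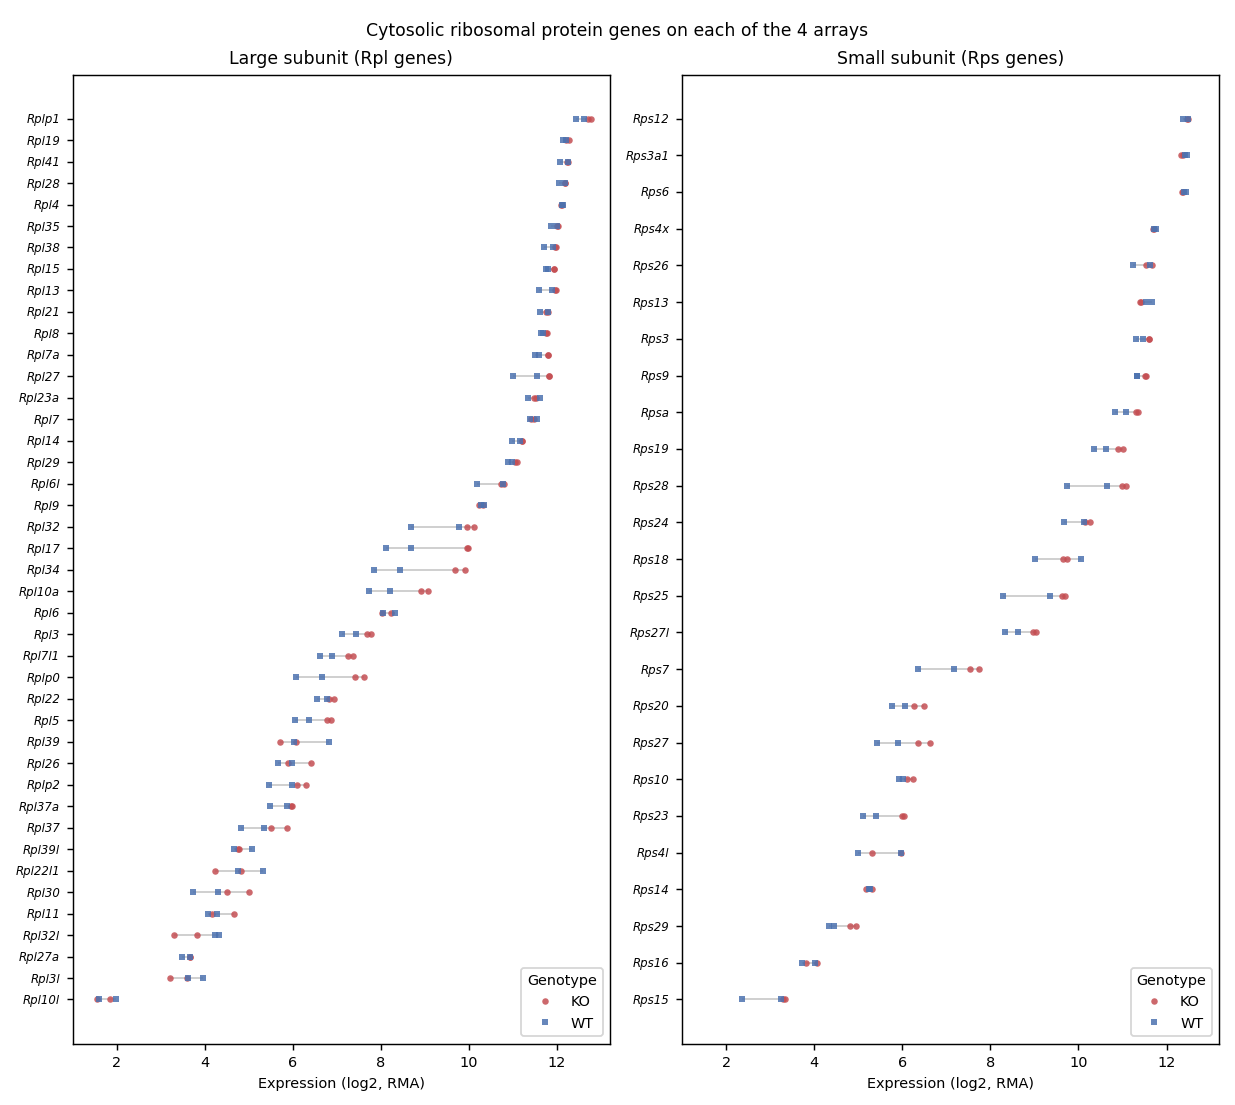
Signal of each of the 67 ribosomal protein genes on the 4 arrays (log2, RMA), large subunit left and small subunit right. Red circles are KO arrays, blue squares are WT arrays, and lines span the 4 arrays of a gene. Both circles lie right of both squares for 40 genes.

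WT replicate 1 stood apart from the other arrays on these genes. It was the lowest of the 4 arrays for 43 members (64.2%), where it was the lowest for 28.2% of all genes. By mean signal, that share of all genes was 55.4% at 11 or above, 29.6% at 6 to 11 and 27.4% below 6. Among members of these classes it was 57.7%, 69.6% and 66.7%. WT replicate 1 was also the lowest array for 78.9% of 71 mitochondrial ribosomal protein genes. The mean signal over the members was 8.79 and 8.80 on the KO arrays, against 8.39 and 8.63 on the WT arrays. Members lay a median of 0.19 lower on WT replicate 1 than on WT replicate 2, and the KO arrays differed by a median of 0.0079. Without WT replicate 1 the members' median difference was 0.11. KO arrays then lay above the remaining WT array for 40 members and below it for 17. Of all genes 38.7% then lay above, beside 25.1% with all 4 arrays, and the share below was not counted. Without WT replicate 2 the median difference was 0.31. Members that rose in limma numbered 0 without KO replicate 1 and 0 without KO replicate 2, where no gene of the array rose. They numbered 14 without WT replicate 1 and 26 without WT replicate 2, where 1442 and 1730 of all genes rose.

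**Figure D2:**
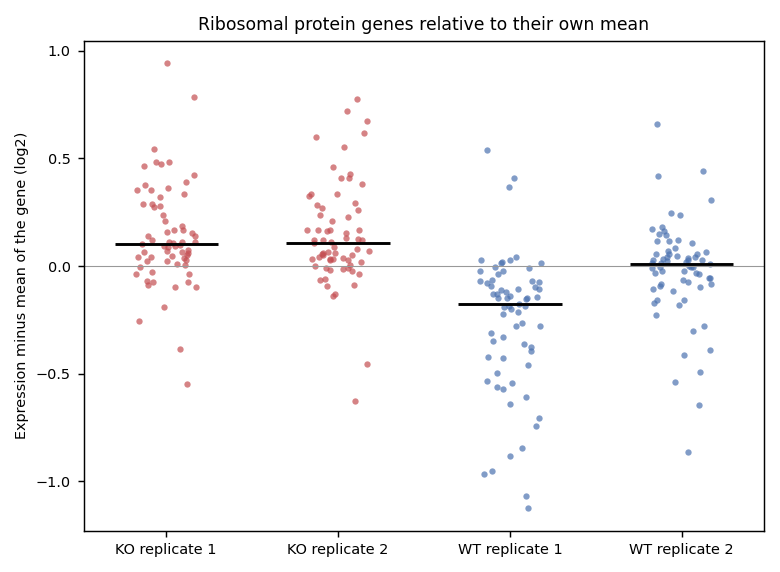
Signal of each ribosomal protein gene minus its own mean over the 4 arrays (log2), by array, with KO arrays left of WT arrays. Points are genes and lines are medians, which were 0.10 and 0.11 on the KO arrays, against -0.18 and 0.0084 on the WT arrays.

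Rpl34 and Rpl17, both of the large subunit, had the largest differences. Rpl34 had 9.91 and 9.69 in KO cells, against 7.84 and 8.43 in WT cells. It rose 3.17-fold, by 1.66 ± 0.23 on the log2 scale (SE, limma adjusted p = 0.0492). Its KO arrays lay far above both WT arrays, and WT replicate 1 was the lowest. Rpl17, whose protein lines the tunnel through which new chains leave the ribosome, had 9.96 and 9.95 in KO cells, against 8.11 and 8.69 in WT cells. It rose 2.95-fold, by 1.56 ± 0.21 (SE, limma adjusted p = 0.0497). The groups stood apart here too. Both adjusted p-values lay just inside the threshold. Without an intensity trend they were 0.0552 for Rpl34 and 0.0559 for Rpl17. They were 0.732 and 0.732 when KO replicate 1 was left out, and 0.552 and 0.554 when KO replicate 2 was.

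Next in size came proteins of the ribosome's stalks, which did not pass. Rplp0, the base of the lateral stalk that recruits elongation factors, had 7.40 and 7.61 in KO cells, against 6.66 and 6.08 in WT cells, a difference of 1.14 ± 0.24 (SE, adjusted p = 0.101). Its dimmer probe set differed by 0.56. Rplp1 and Rplp2, which bind Rplp0 as dimers, differed by 0.22 ± 0.11 and 0.48 ± 0.23 (SE, adjusted p = 0.345 and 0.348). Rpl10a, the protein of the other stalk, where spent tRNAs leave, had 8.90 and 9.07 in KO cells, against 7.73 and 8.20 in WT cells, a difference of 1.02 ± 0.20 (SE, adjusted p = 0.0897). For Rplp0 and Rpl10a both KO arrays lay above both WT arrays.

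The largest differences of the small subunit did not pass either. Rps7 had 7.74 and 7.53 in KO cells, against 6.35 and 7.16 in WT cells, a difference of 0.87 ± 0.28 (SE, adjusted p = 0.195). Rps28 had 11.09 and 10.99 in KO cells, against 9.73 and 10.64 in WT cells, a difference of 0.85 ± 0.28 (SE, adjusted p = 0.199). Rps25, known for its role in initiation at some viral internal entry sites, had 9.63 and 9.70 in KO cells, against 8.28 and 9.36 in WT cells, a difference of 0.85 ± 0.33 (SE, adjusted p = 0.258). For these genes WT replicate 1 was the lowest array, and WT replicate 2 lay between it and the KO arrays. Without WT replicate 1 the differences were 0.47 for Rps7, 0.40 for Rps28 and 0.31 for Rps25. Rps27, a zinc finger protein of the small subunit, had 6.36 and 6.63 in KO cells, against 5.89 and 5.43 in WT cells, a difference of 0.83 ± 0.22 (SE, adjusted p = 0.147). Here WT replicate 2 was the lowest array, and the groups did not overlap. A brighter probe set assigned jointly to Rps27 and Rps27rt had a mean signal of 11.43 and a difference of 0.33.

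At the other end, 5 of the 8 members with the lowest differences have symbols that mark a paralog or copy. Rpl32l, named as a copy of Rpl32, had 3.83 and 3.29 in KO cells, against 4.33 and 4.22 in WT cells, a difference of -0.72 ± 0.22 (SE, adjusted p = 0.18). It was the 1 member that was lower at an unadjusted p under 0.05, on a probe set dimmer than that of the median gene (4.32). Rpl32 itself differed by 0.81 ± 0.33 (SE, adjusted p = 0.287). Rps13 had 11.41 and 11.41 in KO cells, against 11.52 and 11.68 in WT cells, a difference of -0.19 ± 0.11 (SE, adjusted p = 0.451). The groups of Rpl32l and Rps13 did not overlap. Rps3a1 had 12.37 and 12.33 in KO cells, against 12.42 and 12.46 in WT cells, a difference of -0.094 with a 95% interval of -0.32 to 0.13. Rps6, the substrate of the S6 kinases, differed by -0.057, with an interval of -0.28 to 0.17. Both KO arrays lay below both WT arrays for Rps3a1 and Rps6, although the intervals include 0, and the dimmer probe set of Rps3a1 differed by 0.47.

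Paralogs are second genes that resemble a ribosomal protein gene, and the products of some can replace that protein in some tissues. Both genes of 6 pairs were measured. In mice Rpl22 is needed for T cell development and represses Rpl22l1. Rpl22 had 6.94 and 6.82 in KO cells, against 6.55 and 6.78 in WT cells, a difference of 0.21 ± 0.18 (SE, adjusted p = 0.61). Rpl22l1 had 4.23 and 4.82 in KO cells, against 5.32 and 4.75 in WT cells, a difference of -0.51 ± 0.28 (SE, adjusted p = 0.42). The means of this pair lay in opposite directions, neither gene passed, and the groups overlapped for Rpl22l1. With 1 array left out the difference lay between 0.10 and 0.33 for Rpl22 and between -0.80 and -0.21 for Rpl22l1. Rpl39, near the exit of the peptide tunnel, had 6.08 and 5.70 in KO cells, against 6.02 and 6.81 in WT cells, a difference of -0.53 ± 0.30 (SE, adjusted p = 0.422). Rpl39l, its paralog known for a role in the mouse testis, had 4.77 and 4.75 in KO cells, against 4.66 and 5.06 in WT cells, a difference of -0.10 ± 0.20 (SE, adjusted p = 0.855). The groups overlapped for both genes. The difference of Rpl39 was -0.92 without WT replicate 1 and -0.14 without WT replicate 2.

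Rps27l, a paralog of Rps27 that p53 is known to induce, had 8.98 and 9.04 in KO cells, against 8.32 and 8.64 in WT cells, a difference of 0.53 ± 0.17 (SE, adjusted p = 0.194). Rps27 and Rps27l thus both had KO arrays above WT arrays. Rpl3, near the center where peptide bonds form, had 7.68 and 7.78 in KO cells, against 7.42 and 7.11 in WT cells, a difference of 0.47 ± 0.18 (SE, adjusted p = 0.262). Its muscle paralog Rpl3l had 3.21 and 3.59 in KO cells, against 3.96 and 3.63 in WT cells, a difference of -0.39 ± 0.21 (SE, adjusted p = 0.403). Rpl3 lay higher and Rpl3l lower on both KO arrays, and neither passed.

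Rpl7 had 11.47 and 11.41 in KO cells, against 11.38 and 11.53 in WT cells, a difference of -0.015 with an interval of -0.29 to 0.26. Its relative Rpl7l1 had 7.36 and 7.26 in KO cells, against 6.88 and 6.61 in WT cells, a difference of 0.56 ± 0.18 (SE, adjusted p = 0.194). The groups overlapped for Rpl7 and stood apart for Rpl7l1. Rps4x, on the X chromosome, had 11.71 and 11.69 in KO cells, against 11.76 and 11.71 in WT cells, a difference of -0.030 ± 0.10 (SE, adjusted p = 0.92). Rps4l had 5.31 and 5.97 in KO cells, against 4.99 and 5.98 in WT cells, a difference of 0.15 ± 0.37 (SE, adjusted p = 0.882). Rpl10l, which replaces Rpl10 in male meiosis of mice, had 1.55 and 1.85 in KO cells, against 1.59 and 1.98 in WT cells, close to the bottom of the array's range. The groups overlapped for Rps4x, Rps4l and Rpl10l. Over the 9 members whose symbol marks a paralog or copy the median difference was -0.083, and over the other 58 it was 0.22. The KO mean was higher for 4 of the 9 and for 48 of the 58. These groups also differ in signal, with median levels of 4.81 and 10.17. All genes with signals below 6 had a median difference of -0.025. The part of signal level in this contrast was not tested.

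**Figure D3:**
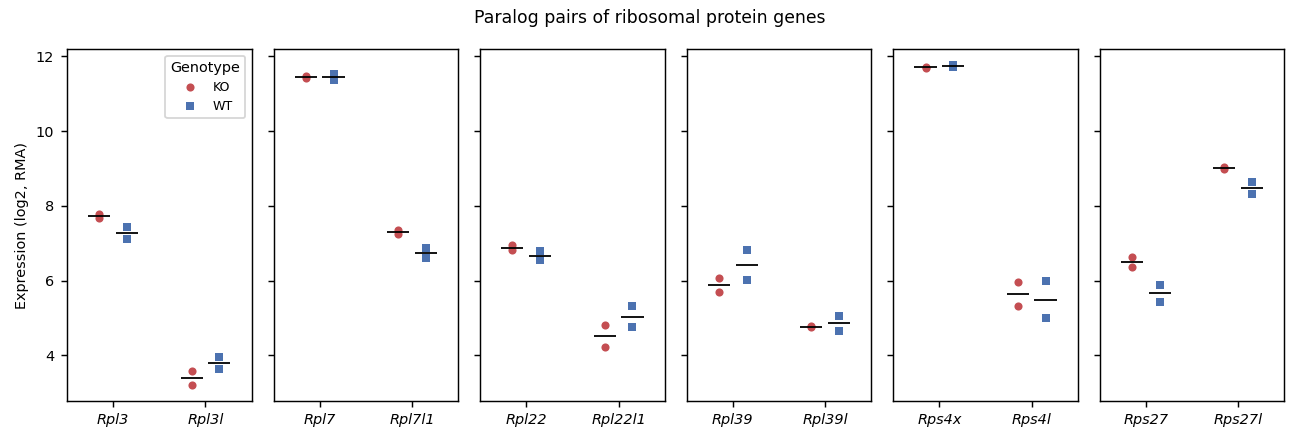
Signals of ribosomal protein paralog pairs (log2, RMA) in KO cells (red circles) and WT cells (blue squares). Points are arrays and lines are means of 2 arrays; heights compare genotypes within a gene only. Both KO arrays lie above both WT arrays for Rps27, Rps27l, Rpl7l1, Rpl3 and Rpl22.

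Genes mutated in human Diamond-Blackfan anemia had higher KO means throughout, on the probe set read for each gene. Of 19 listed genes 15 were measured, and the KO mean was higher for 15 of them, with a median difference of 0.45. Both KO arrays lay above both WT arrays for 12, 7 had a higher KO mean with an unadjusted p under 0.05, and limma called 0 after adjustment. Of all genes 25.1% stood apart upward and 10.5% were higher at that p. Of the 67 ribosomal protein genes, to which these belong, 40 stood apart upward and 19 were higher at that p. WT replicate 1 was the lowest array for 13 of these genes. Without it their median difference was 0.27. Rps19, the gene most often mutated in the disease, had 11.01 and 10.89 in KO cells, against 10.36 and 10.63 in WT cells, a difference of 0.45 ± 0.14 (SE, adjusted p = 0.186). Rpl5, which with Rpl11 can bind and inhibit Mdm2, had 6.87 and 6.77 in KO cells, against 6.06 and 6.35 in WT cells, a difference of 0.62 ± 0.19 (SE, adjusted p = 0.177). The groups of Rps19 and Rpl5 stood apart. A probe set assigned jointly to Rpl5 and a pseudogene copy, which names neither, differed by -0.38. On it both KO arrays lay below both WT arrays, opposite to the probe set of Rpl5 alone. Rpl11 had 4.67 and 4.15 in KO cells, against 4.08 and 4.27 in WT cells, a difference of 0.24 with an interval of -0.30 to 0.78. Of 10 listed ribosomal proteins known to bind Mdm2, 8 were measured, with a median of 0.43. Both KO arrays lay above both WT arrays for 5 of them, beside 25.1% of all genes and 40 of the 67 members.

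The size of the difference varied with the signal of the probe set, at limits chosen after the values were seen. The 26 members with a mean signal of at least 11 had a median difference of 0.092, beside 0.092 over all 112 genes that bright. Among them 14 stood apart upward and 3 downward, beside 49.1% and 21.4% of such genes, and 2 were higher at an unadjusted p under 0.05, beside 18.8%. In median and in the share that stood apart, these bright members were near the background of bright genes, which includes them. Their share higher at that p lay below it.

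The 23 members with signals of 6 to 11 had a median difference of 0.53, beside 0.11 over 6284 genes. Among them 18 stood apart upward and 0 downward, beside 40.3% and 23.5%, and 13 were higher at an unadjusted p under 0.05, beside 22.0%. Rpl34 and Rpl17 belong to this class. The 18 members below 6 had a median of 0.20, beside -0.025. Of these 8 stood apart upward and 2 downward, beside 18.9% and 22.7%, and 4 were higher at an unadjusted p under 0.05, beside 5.84%. Without WT replicate 1 the medians were 0.028 for the brightest members, 0.32 for the middle class and 0.045 for the dimmest. Over all genes of these classes they were then 0.026, 0.18 and -0.053.

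**Figure D4:**
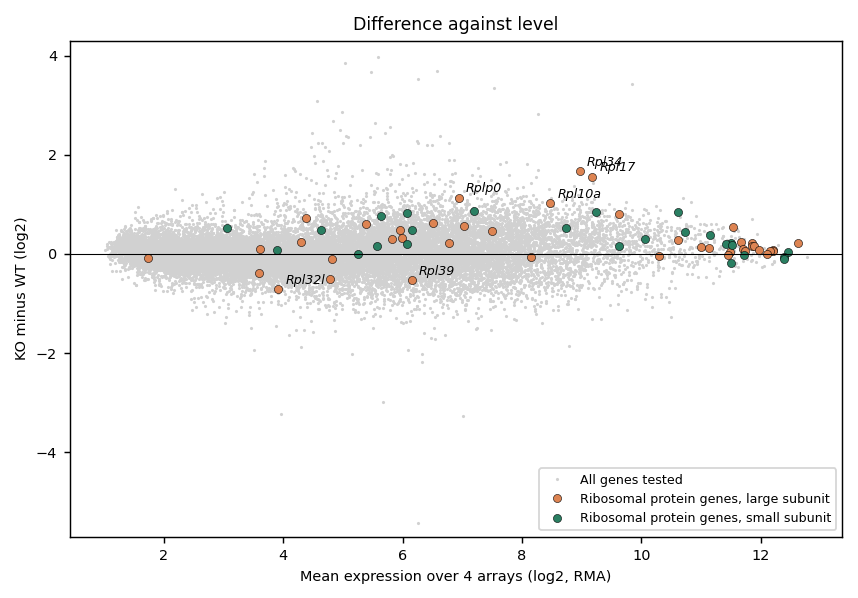
Difference between KO and WT means (log2) against the mean signal over 4 arrays (log2, RMA), for all 22180 genes (grey) and the ribosomal protein genes (coloured by subunit). Members with signals of at least 11 lie between -0.19 and 0.54, and Rpl34 reaches 1.66.

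Probe sets of one gene often gave different values. Of the members, 25 had several single-gene probe sets, and in 8 of these the signs of the differences were mixed. For Rps20 the brighter probe set differed by 0.47 and the dimmer by 1.47, and for Rpl29 the values were 0.14 and 1.45. A probe set assigned jointly to Rpl34 and a pseudogene copy, which names neither, had a mean signal of 11.76 and a difference of 0.31, beside 1.66 for the probe set of Rpl34 alone. One assigned jointly to Rpl39 and other genes differed by 1.07, beside -0.53 for Rpl39 alone. Ribosomal protein genes have many near-identical processed copies in the genome. Whether such copies add to the signals of these probe sets was not tested, and the values of single genes in this family are uncertain.

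Genes that act with the ribosomal proteins were described over lists. Fau, which encodes a further protein of the small subunit, had 11.74 and 11.72 in KO cells, against 11.33 and 11.48 in WT cells, a difference of 0.32 ± 0.11 (SE, adjusted p = 0.22). Of 7 measured chaperones of newly made ribosomal proteins, 7 had a higher KO mean, with a median of 0.48. Both KO arrays lay above both WT arrays for 5, 4 passed an unadjusted p under 0.05, and limma called 0 after adjustment. The shares of all genes were 25.1% and 10.5%, and 40.3% of genes with signals of 6 to 11 stood apart upward. Pdcd2l, a relative of a chaperone of Rps2, had 6.99 and 7.16 in KO cells, against 6.26 and 5.77 in WT cells, a difference of 1.06 ± 0.22 (SE, adjusted p = 0.0987). Tsr2, the chaperone of Rps26, had 6.78 and 6.63 in KO cells, against 6.33 and 6.16 in WT cells, a difference of 0.46 ± 0.18 (SE, adjusted p = 0.261). Here WT replicate 2 was the lowest array for 5 genes and WT replicate 1 for 2, unlike the pattern over the ribosomal protein genes.

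TOP mRNA genes outside the ribosome did not lean one way. Of 14 measured, such as translation factors, 7 had a higher and 7 a lower KO mean, with a median of 0.027. Eef1d, an elongation factor subunit, differed by 0.58 ± 0.15 (SE, adjusted p = 0.13), and Pabpc1, the poly(A)-binding protein, by -0.43 ± 0.16 (SE, adjusted p = 0.238). The 9 measured regulators of TOP mRNA translation had a median of -0.0065. Eif4ebp1, a repressor of cap-dependent initiation that mTOR inactivates, had 8.18 and 8.21 in KO cells, against 7.30 and 7.08 in WT cells, which is 2.01-fold higher in KO cells (adjusted p = 0.0711). Of the mitochondrial ribosomal protein genes, which build the separate ribosome of mitochondria, 70 of 71 had both KO arrays above both WT arrays, beside 25.1% of all genes and 40.3% of genes with signals of 6 to 11, with a median of 0.73. The difference between the mitochondrial and the cytosolic genes was not tested.

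Promoters are shown for the 3 members of largest difference in each direction among those with a RefSeq window, which leaves out Rpl17. RefSeq windows of build GRCm38.p6, 250 bases before to 50 after the annotated start, were found for 52 of the members, 61 windows in all. CCGGAAG, a core bound by ETS factors, stood on either strand in 23 of them (37.7%), beside 8.86% of 32851 windows of all genes. A TOP-like start, a C at the annotated start and then 4 pyrimidines on the strand of the gene, stood in 11 member windows, beside 2.51% of all windows. On either strand AAGATGGC, a core bound by YY1, stood in 4.92% of member windows and 2.75% of all. The TATA box letters TATAAA stood in 9.84% of member windows and 13.6% of all. CCGGAAG can overlap AAGATGGC by their shared letters. An annotated start is not a measured cap site, and a match describes the letters only. Each stretch runs 60 bases before to 10 after a start, 5′ to 3′ on the strand of the gene, and capitals mark a match to any of these motifs.
Rpl34, first listed start, chr3:130730389-130730458, minus strand: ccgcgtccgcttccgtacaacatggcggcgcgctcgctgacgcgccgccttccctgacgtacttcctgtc
Rpl34, second listed start, chr3:130730328-130730397, minus strand: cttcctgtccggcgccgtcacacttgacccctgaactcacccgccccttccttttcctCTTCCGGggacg
Rplp0, chr5:115559407-115559476, plus strand: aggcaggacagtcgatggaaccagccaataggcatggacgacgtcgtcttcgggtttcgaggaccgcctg
Rpl10a, first listed start, chr17:28328411-28328480, plus strand: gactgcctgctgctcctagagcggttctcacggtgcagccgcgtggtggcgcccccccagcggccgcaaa
Rpl10a, second listed start, chr17:28328505-28328574, plus strand: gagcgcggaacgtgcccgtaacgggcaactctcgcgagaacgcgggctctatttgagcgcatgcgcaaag
Rpl32l, chr10:20208379-20208448, plus strand: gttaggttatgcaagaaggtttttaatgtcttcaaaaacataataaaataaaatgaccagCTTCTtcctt
Rpl39, chrX:37085213-37085282, minus strand: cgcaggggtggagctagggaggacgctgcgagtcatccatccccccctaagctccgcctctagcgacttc
Rpl22l1, chr3:28805448-28805517, plus strand: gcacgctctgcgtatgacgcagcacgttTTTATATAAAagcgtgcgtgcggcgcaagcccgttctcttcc
Rpl34, which rose, has the ETS core on the opposite strand across its second listed start. Rpl32l has a TOP-like start, and Rpl22l1 has the TATA box letters on both strands in one overlapping run. The stretches of Rplp0, Rpl10a and Rpl39 hold no match, but outside them the full window of Rpl39 holds the ETS core and the TATA box letters, and those of Rplp0 and Rpl32l hold the TATA box letters.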

How the data were processed

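The authors deposited log2 values of 41345 probe sets on 4 arrays. RMA and Affymetrix Expression Console 1.2.1 are named, per the submitters' processing notes, while settings and a build for the annotation are not given in sources used here. The platform annotation gave 1 symbol to 23521 probe sets and several to 1814. Each gene kept its single-gene probe set of highest mean, with no filter on dim genes. The KO and WT arrays were fitted with limma 3.58.1 in R 4.3.3, with an intensity trend, two-sided p-values and Benjamini-Hochberg adjustment over all genes. SEs are moderated. The fit was tested on simulated data. Array numbers limit the precision, and depth does not apply.

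By rule, array values in full were due for Ncoa3, members past the threshold, the 8 largest differences in each direction, paralog pairs, Rps19, Rpl5, Rpl11 and Rpl22. Other members may be named, and other lists give counts with up to 4 genes of smallest p, some with array values. Kit and Cd34 and the single markers were named outside this rule, after their values were seen. Members and lists were chosen with earlier results of these data known. Alternatives were a replicate block, the mean of probe sets, a level filter, quantile normalization, no trend, members with 1 probe set, and each array left out.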

Additional observations from a re-analysis of the deposited data

How the results depend on the processing

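The members' median difference stayed above 0 in each alternative run, with 0.115 to 0.311 when 1 array was left out. Members that rose in limma numbered 2 as reported, 1 with the replicate block, 0 without the trend and 0 to 26 with 1 array left out; those that fell numbered 0 to 2. All genes that rose numbered 88 as reported, 208 with the level filter, 142 after quantile normalization, 0 without either KO array, 1442 without WT replicate 1 and 1730 without WT replicate 2. A lone array is assumed to vary like the other group. Counts of members past a p threshold in such runs are therefore no measure of an excess by themselves. Without KO replicate 2, members were higher at an unadjusted p under 0.05 about as often as all genes. With any other array left out they were higher more often than all genes. Same-numbered arrays deviated together with r = 0.11 over all genes and share only a number; under the replicate block the adjusted p was 0.0502 for Rpl34 and 0.042 for Rpl17. At an unadjusted p under 0.05, 3 to 41 members were higher and 0 to 6 lower with 1 array left out, and 0 lower with the level filter. Groups without overlap numbered 40 to 54 higher and 7 to 17 lower with 1 array left out. Of all genes 34.5% to 39.1% then lay higher without overlap, beside 25.1% with no array left out, and the share lower was not counted. With the level filter 3 members lay lower, and 25 of the 42 members with 1 probe set lay higher, where fewer members were counted. With the mean of probe sets Rpl7 was at 0.029 and Rps3a1 at 0.19, and after quantile normalization Rpl39l was at 0.0080, all of opposite sign to the reported values. With 1 array left out, Rpl7 ran between -0.093 and 0.062, Rpl10l between -0.28 and 0.11, Rpl11 between -0.022 and 0.50, Rpl39l between -0.30 and 0.10 and Rps4l between -0.34 and 0.65. Without changing sign, Rpl3, Rpl3l, Rpl32l, Rps4x and Rps13 also moved by over 1.5 times, with ranges of 0.31 to 0.62, -0.58 to -0.20, -0.98 to -0.45, -0.055 to -0.0056 and -0.27 to -0.11. The cause was not tested.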

Other observations

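Genes named as ribosomal protein pseudogenes that have a probe set of their own numbered 15. Their median difference was 0.0022, and 3 had both KO arrays above both WT arrays and 1 below, beside 25.1% and 22.9% of all genes. The 57 probe sets assigned to several genes, at least 1 of them with a matching symbol, name no gene here. Their median difference was 0.31, with 0.068 for the 17 with signals of at least 11 and 0.35 for the other 40.

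Introns of many ribosomal protein genes hold small nucleolar RNAs. The span of 22 members holds such a gene in the RefSeq table, and their median difference was 0.22, beside 0.19 for the other 45. Whether these groups of members differ was not tested.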
